A study of Mus musculus with 9 samples.

Results

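A set of 10 circadian clock genes, Clock, Per1, Per2, Per3, Ciart, Nr1d1, Nr1d2, Dbp, Tef and Hlf, was followed in the lungs of 9 mice. They were taken by gene symbol from a table of 34638 genes, and each was found, with 270 to 26930 reads each per mouse, and all 10 passed the filter on low values. The mice were wild-type C57BL/6 females of 6 to 8 weeks, kept on a 12 h light and 12 h dark cycle, in 3 groups of 3. The PBS group was the control and received sterile PBS without IL-33, first on day 0 and last on day 3. The IL-33 group received 0.5 µg of interleukin-33, a cytokine that drives type 2 inflammation through ST2 and the adaptor MyD88, into the trachea on days 0, 1, 2 and 3. The IL-33+LM8 group received the same challenge and, before it, LM8, a MyD88 inhibitor, at 10 mg/kg into the peritoneum. Whole lungs were taken on day 4, 24 h after the last challenge. The hour of the day is given for no mouse, so time of sampling and treatment cannot be told apart in any difference below.

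The mammalian clock is a loop of transcription factors that runs in nearly every cell of the body, lung epithelium included. CLOCK pairs with BMAL1, the product of Arntl, binds E-boxes and switches on the Per and Cry genes, the Rev-erb genes Nr1d1 and Nr1d2, and Dbp. The PER and CRY proteins then shut CLOCK and BMAL1 off, and the REV-ERB receptors repress Arntl, so that Arntl and Dbp peak at opposite times of day. DBP, TEF and HLF are related leucine zipper factors that act on outputs through a further element, the D-box.

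Some of these genes carry clock elements within the 250 bases before their start. RefSeq windows on build GRCm38.p6 existed for 9 of the 10 genes, 13 windows in all, and Per2 had none. An E-box, CACGTG, stood in 4 of the 13 windows, belonging to Ciart, Per1 and Tef, against 6.02% of 32851 windows searched. A D-box, TTATGTAA on either strand, stood in 1 of the 13, the window of Per3, against 0.819%. The windows searched did not cover every chromosome. A cAMP response element, TGACGTCA, stood in the window of Hlf (1.55% of the windows searched), and the core TAGGTCA of the ROR element stood in none (2.23% of the windows searched, both strands). None of these letters was found in the windows of Clock, Nr1d1, Nr1d2 or Dbp. Below are the windows with the most E-boxes and with the D-boxes, and one of Per1 beside them as the gene with a single E-box, each 5′ to 3′ on the strand of the gene with the matches in capitals.
Ciart, chr3:95882229-95882478, minus strand: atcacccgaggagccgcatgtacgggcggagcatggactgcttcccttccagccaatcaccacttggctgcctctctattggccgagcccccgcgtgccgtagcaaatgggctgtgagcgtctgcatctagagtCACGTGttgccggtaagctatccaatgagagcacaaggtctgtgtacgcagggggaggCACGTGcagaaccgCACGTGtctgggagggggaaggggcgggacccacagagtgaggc
Per3, chr4:151044666-151044915, minus strand: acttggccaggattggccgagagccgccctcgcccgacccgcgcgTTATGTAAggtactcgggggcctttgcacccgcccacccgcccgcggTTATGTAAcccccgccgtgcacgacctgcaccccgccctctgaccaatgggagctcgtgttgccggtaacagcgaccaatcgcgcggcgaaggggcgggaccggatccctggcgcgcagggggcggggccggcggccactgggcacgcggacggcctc
Per1, chr11:69098699-69098948, plus strand: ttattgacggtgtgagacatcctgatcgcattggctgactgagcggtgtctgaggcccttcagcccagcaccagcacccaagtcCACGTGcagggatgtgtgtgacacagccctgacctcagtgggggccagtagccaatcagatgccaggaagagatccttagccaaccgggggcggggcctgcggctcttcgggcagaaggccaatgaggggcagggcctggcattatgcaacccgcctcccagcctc
The 3 E-boxes of Ciart begin 116, 58 and 44 bases before the start, the 2 D-boxes of Per3 begin 205 and 158 bases before it, and the E-box of Per1 begins 166 bases before it. A match of letters is a description of the sequence and not a measured binding site.

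Levels below are FPKM, fragments scaled to transcript length and to sequencing depth, as deposited. Mice are called 1, 2 and 3 by their labels within a group. Tests are edgeR's quasi-likelihood test on the deposited counts, with log2 fold changes ± standard error and p-values adjusted over all genes tested by the Benjamini-Hochberg method. A gene rose or fell where the adjusted p was under 0.05, and changed at least 2-fold where the absolute log2 fold change was also at least 1. Nothing in the labels says that the mice of a group came from separate cages or days, so the p-values measure the spread among these 9 animals. Total counts per mouse lay between 53877663 and 90607218.

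After IL-33, the clock genes moved in both directions. Dbp, Nr1d1, Nr1d2 and Hlf rose, Clock, Per1, Per2, Ciart and Tef fell, and Per3 did not pass the test. The 4 that rose compare with 27.4% of all 16831 genes tested that rose, and the 5 that fell with 27.2% that fell. At least 2-fold, 3 members rose (10.8% of all genes did) and 0 fell (6.24% of all genes did), and the 3 were Dbp, Nr1d1 and Nr1d2. In 9 of the 10 the IL-33 and PBS mice did not overlap in FPKM, where 63.4% of all genes tested did not overlap. The median log2 fold change of the 10 genes was -0.13, against -0.01 over all genes.

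**Figure D1:**
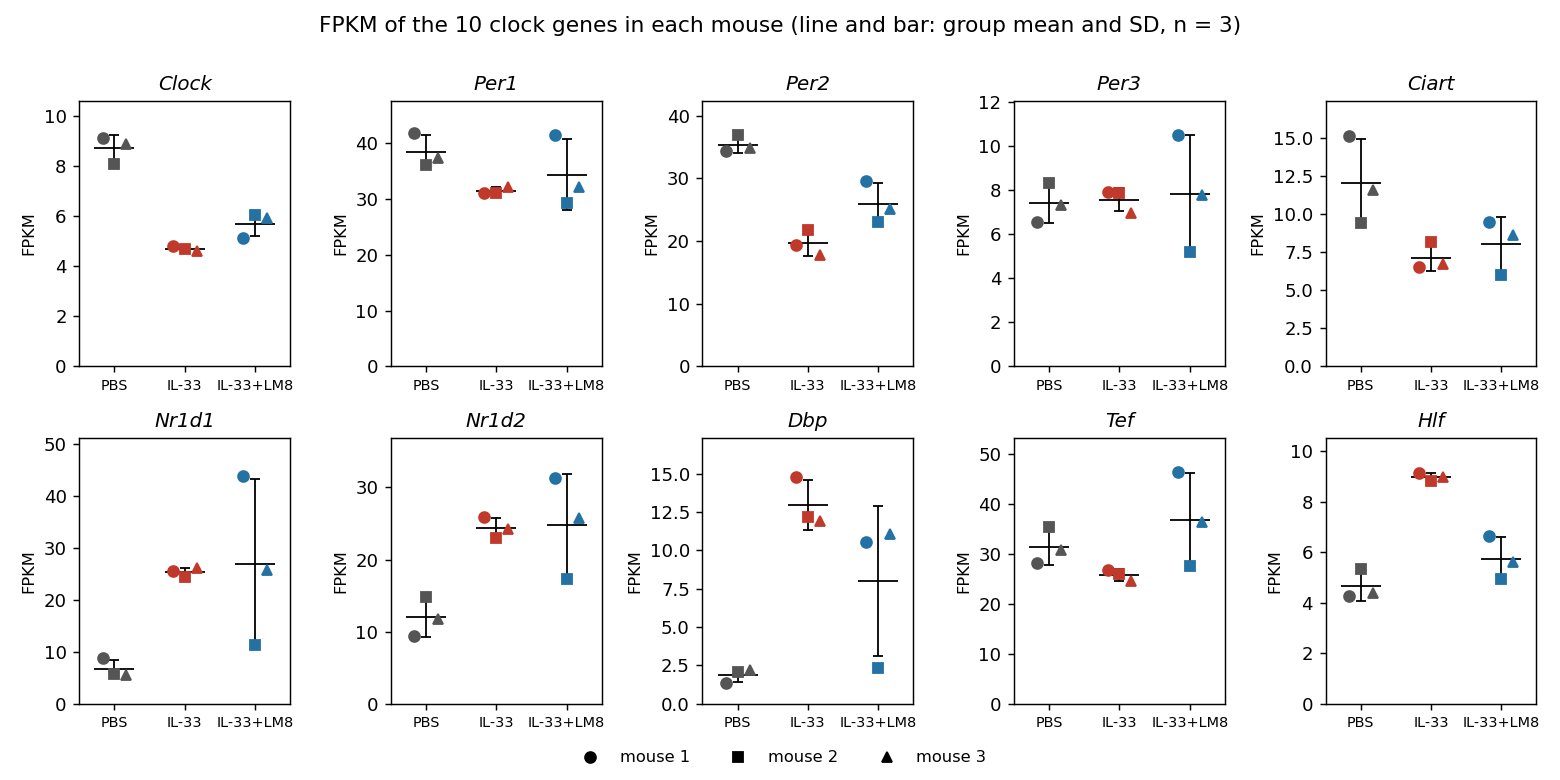
FPKM of each of the 10 clock genes (y axis, linear, from 0) in each of the 9 mice, by group on the x axis; symbols mark mice 1, 2 and 3, and the line and bar give the group mean and SD (n = 3). Dbp, Nr1d1, Nr1d2 and Hlf lie higher in all 3 IL-33 mice than in any PBS mouse, Clock, Per1, Per2, Ciart and Tef lie lower, and the IL-33+LM8 mice spread widely for Dbp and Nr1d1.

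Dbp, the D-box activator and one of the most strongly rhythmic transcripts of many tissues, showed the widest change. The table places it on chr7:45354512-45359627 (ENSMUSG00000059824). It read 1.38, 2.04 and 2.17 FPKM in PBS mice 1, 2 and 3, and 14.8, 12.2 and 11.9 FPKM in the IL-33 mice. All 3 IL-33 mice were thus several times above every PBS mouse. The mean level was 6.95 times that of the PBS mice, with a log2 fold change of 2.79 ± 0.18 (adjusted p = 1.97e-05, edgeR).

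Hlf and Tef, the other D-box activators, parted ways. Hlf (ENSMUSG00000003949, chr11:90227362-90281721) was at 4.28, 5.33 and 4.37 FPKM in PBS mice 1, 2 and 3 and at 9.14, 8.83 and 8.96 FPKM with IL-33. The IL-33 mice were close together, and the mean level was 1.93 times that of the controls, a log2 fold change of 0.94 ± 0.09 (adjusted p = 0.000113, edgeR). Tef (ENSMUSG00000022389, chr15:81686622-81711064) read 28.1, 35.5 and 30.9 FPKM in PBS mice and 26.8, 26.1 and 24.5 FPKM in IL-33 mice. The groups did not overlap, but the fall was small, -0.29 ± 0.08 (adjusted p = 0.0221, edgeR), and it did not pass when any 1 IL-33 mouse was left out (adjusted p up to 0.098) or when all 9 mice were fitted together (adjusted p = 0.150).

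Both Rev-erb genes, which code for heme-binding nuclear receptors that repress Arntl, rose. Nr1d1 (REV-ERB alpha, ENSMUSG00000020889, chr11:98658758-98666159) read 8.73, 5.76 and 5.49 FPKM in PBS mice 1, 2 and 3 against 25.6, 24.5 and 26.1 FPKM in the IL-33 mice. The log2 fold change was 1.93 ± 0.18 (adjusted p = 0.000104, edgeR), or 3.81 times in mean FPKM. Nr1d2 (REV-ERB beta, ENSMUSG00000021775, chr14:4230569-4265642) stood at 9.35, 14.8 and 11.8 FPKM in PBS mice and at 25.9, 23.0 and 24.2 FPKM in IL-33 mice. Its log2 fold change of 1.02 ± 0.15 (adjusted p = 0.000898, edgeR) lay at the 2-fold line, and it fell below that line, to 0.88 at the lowest, without PBS mouse 1 or IL-33 mouse 1 and with some other settings, while still passing the test in each.

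The activator Clock (ENSMUSG00000029238, chr5:76357715-76452639) fell. It read 9.13, 8.08 and 8.87 FPKM in PBS mice 1, 2 and 3 and 4.81, 4.68 and 4.62 FPKM in the IL-33 mice, so that the highest IL-33 mouse was well below the lowest control. The log2 fold change was -0.89 ± 0.06 (adjusted p = 2.05e-05, edgeR).

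The repressors of the PER arm were lower or level. Per2 (ENSMUSG00000055866, chr1:91343704-91387046) was at 34.3, 36.9 and 34.9 FPKM in PBS mice 1, 2 and 3 and at 19.4, 21.8 and 17.8 FPKM with IL-33, a log2 fold change of -0.85 ± 0.08 (adjusted p = 0.000101, edgeR). Per1 (ENSMUSG00000020893, chr11:68986043-69000786) read 41.9, 36.1 and 37.5 FPKM in PBS mice and 31.1, 31.1 and 32.2 FPKM in IL-33 mice. This fall was shallow, -0.29 ± 0.07 (adjusted p = 0.00907, edgeR), and missed the threshold in the fit of all 9 mice (adjusted p = 0.0550). Per3 (ENSMUSG00000028957, chr4:151088109-151129122), the gene with the D-box pair, stood at 6.56, 8.32 and 7.31 FPKM in the controls and 7.89, 7.85 and 6.96 FPKM with IL-33. These values overlapped, and the log2 fold change of 0.03 ± 0.09 did not pass (adjusted p = 0.788, edgeR).

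Ciart, also called Chrono (ENSMUSG00000038550, chr3:95785815-95789543), codes for a repressor of CLOCK and BMAL1. It read 15.1, 9.39 and 11.6 FPKM in PBS mice 1, 2 and 3 and 6.55, 8.13 and 6.69 FPKM with IL-33. All IL-33 mice were below all controls, with a log2 fold change of -0.76 ± 0.19 (adjusted p = 0.0112, edgeR). An antisense transcript, C920021L13Rik, covers the whole of Ciart in the table and moved the same way, by -1.02 (adjusted p = 0.000761, edgeR). Whether counting used the strand is not stated, so reads of the pair cannot be told apart.

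Further genes overlap other members. Sphk2 lies antisense to 737 of the 5116 bases of Dbp, and its log2 fold change was -0.11 (adjusted p = 0.290, edgeR), against the rise of Dbp. Camta1 spans all of Per3 on the same strand, at 0.54 to 1.28 FPKM over the PBS and IL-33 mice. Its log2 fold change of -0.58 did not pass (adjusted p = 0.1035, edgeR). Ube2n-ps1 and Gm43658 lie within Clock on its strand, where Ube2n-ps1 had a log2 fold change of -0.0039 (adjusted p = 0.990, edgeR). Gm43658, at 0 to 0.0146 FPKM, and Gm17597, antisense to 193 bases of Tef, were too low to be tested.

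The rest of the loop was read from a list of 16 other clock genes, of which 13 were tested. With IL-33, 2 of the 13 rose and 8 fell, beside 27.4% and 27.2% of all genes tested. Their median log2 fold change was -0.46. Arntl, the partner of Clock, read 5.59, 3.33 and 4.86 FPKM in PBS mice 1, 2 and 3 and 1.70, 1.34 and 1.48 FPKM with IL-33, a log2 fold change of -1.61 ± 0.20 (adjusted p = 0.000400, edgeR). Npas2, a close relative of Clock that can take its place beside BMAL1, went from 3.60, 2.28 and 2.57 FPKM to 0.536, 0.788 and 0.773 FPKM, a change of -2.01 ± 0.24 (adjusted p = 0.000338, edgeR). Clock, Arntl and Npas2 were thus each lower in every IL-33 mouse than in any PBS mouse, alongside higher Nr1d1 and Nr1d2. Arntl2, a further activator of the list, was too low to be tested. It overlapped between the groups, at 0.503, 0.338 and 0.406 FPKM in PBS mice and 0.422, 0.541 and 0.456 FPKM in IL-33 mice.

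Both cryptochromes, the partners of the PER proteins, fell, Cry1 by -0.67 ± 0.15 (adjusted p = 0.00664, edgeR) and Cry2 by -1.10 ± 0.05 (adjusted p = 3.25e-06, edgeR). The 2 that rose were both repressors. Nfil3, which competes with DBP, TEF and HLF for the D-box, rose from 8.61, 8.52 and 9.45 FPKM to 13.7, 12.3 and 15.2 FPKM (log2 fold change 0.63 ± 0.10, adjusted p = 0.00134, edgeR). Bhlhe40, an E-box repressor that is also expressed in activated leukocytes, rose by 2.06 ± 0.06 (adjusted p = 9.999e-07, edgeR).

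**Figure D2:**
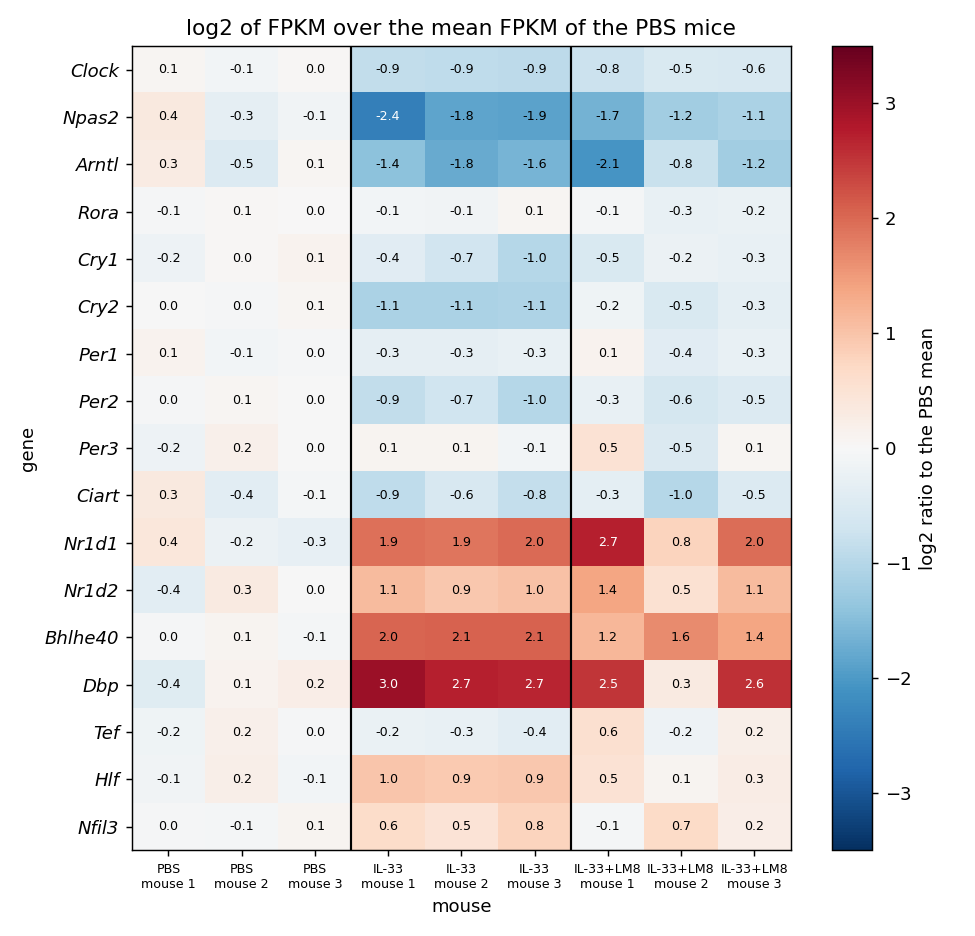
Log2 of each mouse's FPKM over the mean FPKM of the 3 PBS mice, for the 10 members and other clock genes (rows) in the 9 mice (columns); red is higher and blue lower than the PBS mean. IL-33 mice show Dbp at 2.67 to 2.99 and Arntl at -1.43 to -1.77, and IL-33+LM8 mouse 2 shows Dbp at 0.32 and Arntl at -0.78.

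In the levels of Dbp and Arntl, which oppose each other through the day, the groups were far apart. The ratio of their FPKM was 0.246, 0.614 and 0.447 in PBS mice 1, 2 and 3 and 8.71, 9.07 and 8.06 in the IL-33 mice. For Nr1d1 over Arntl it was 1.56, 1.73 and 1.13 in PBS mice against 15.0, 18.2 and 17.7 in IL-33 mice. The IL-33 mice thus lay close to each other on both ratios, and above every PBS mouse.

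Over all genes tested, 27.4% rose and 27.2% fell with IL-33. Of 8 rhythmic output genes outside the loop, 4 rose and 4 fell, and all 8 passed the test. Only Tspan4 among them changed at least 2-fold, from 11.7, 18.2 and 16.0 FPKM in PBS mice to 35.7, 39.2 and 37.0 FPKM in IL-33 mice (log2 fold change 1.28 ± 0.14, adjusted p = 0.000258, edgeR). The median over the 8 was -0.06. Genes that answer to glucocorticoids, hormones which vary with the time of day and with stress, were read beside them. Among 8, 2 rose and 4 fell, and the most abundant, Dusp1 and Tsc22d3, had log2 fold changes of -1.09 and -1.04 (adjusted p = 0.00503 and 3.53e-06, edgeR). Among 7 immediate early genes, which respond to handling and other fast stimuli and can drive Per1, 2 rose and 4 fell, with Junb at 1.31 and Fos at -1.43 (adjusted p = 0.00271 and 0.000123, edgeR). Their part in the clock gene differences was not tested.

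The cell makeup of the lungs moved with the same groups. Summed FPKM of 6 endothelial markers was 708.9 to 792.2 in PBS mice and 424.4 to 458.4 in IL-33 mice, where 5 of the 6 fell, and that of 3 club cell markers went from 21640 to 23700 down to 8453 to 9494, where all 3 fell. Alveolar type 1 (4 of 5 fell, 1 rose), alveolar type 2 (3 of 5 fell) and fibroblast markers (4 of 5 fell, 1 rose) were also mostly lower. Of the tested eosinophil markers 4 of 5 rose and 1 fell, and of the macrophage markers 4 of 5 rose and 1 fell. Markers of neutrophils (5 of 5), T cells (4 of 5), B cells (4 of 4) and smooth muscle (2 of 4) rose. The 4 cardiac muscle markers, which all fell, summed to 163.9 to 188.9 FPKM in PBS mice and 52.5 to 75.8 FPKM in IL-33 mice. Sums of 5 adipocyte markers overlapped, at 23.6 to 97.8 FPKM and 14.9 to 33.8 FPKM, and 2 of the 4 tested fell. In whole lung, fewer cells of a type and less RNA per cell cannot be told apart, and the part of cell makeup in the clock gene differences was not tested.

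The IL-33+LM8 mice were compared with the IL-33 mice to ask what MyD88 inhibition did to these genes. Clock and Per2 rose with LM8, Hlf fell, and 7 of the 10 genes did not pass the test. Over all 16831 genes tested, 12.6% rose and 13.9% fell in this comparison. At least 2-fold, 0 members rose (1.46% of all genes did) and 0 fell (3.93% of all genes did), by edgeR, DESeq2 and limma alike, while 4 members had an unadjusted p under 0.05 in edgeR. In 5 of the 10 the groups did not overlap, where 43.2% of all genes did not. The median log2 fold change of the 10 was 0.11.

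**Figure D3:**
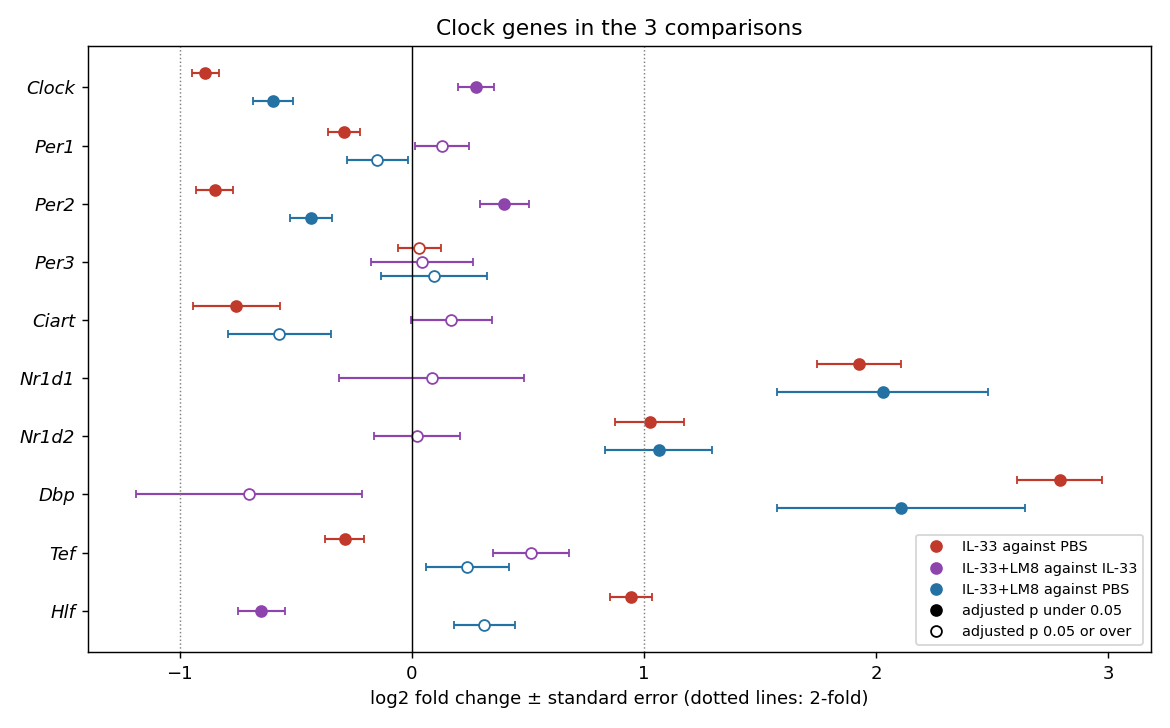
Log2 fold change (x axis) with its standard error for each clock gene (rows) in IL-33 against PBS, IL-33+LM8 against IL-33, and IL-33+LM8 against PBS; filled points have an adjusted p under 0.05 (edgeR). The IL-33 mice are shared by 2 of the comparisons and the PBS mice by another 2, so the 3 points of a gene are not independent. Bars are widest for Dbp and Nr1d1 wherever the IL-33+LM8 mice enter.

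Hlf went from 9.14, 8.83 and 8.96 FPKM in IL-33 mice 1, 2 and 3 to 6.64, 4.94 and 5.61 FPKM with LM8, a fall of -0.65 ± 0.10 on the log2 scale (adjusted p = 0.00344, edgeR) that passed under every alternative run. Per2 was at 29.6, 23.0 and 25.2 FPKM with LM8, above all 3 IL-33 mice, with a log2 fold change of 0.40 ± 0.10 (adjusted p = 0.0281, edgeR). Clock read 5.12, 6.03 and 5.93 FPKM, also above all 3, and changed by 0.28 ± 0.08 (adjusted p = 0.0333, edgeR). Neither rise passed in every fit. That of Per2 missed the threshold without LM8 mouse 1 or 3 or IL-33 mouse 1 or 3 (adjusted p up to 0.103), and that of Clock without LM8 mouse 2 or 3 or any 1 IL-33 mouse (adjusted p up to 0.0929). With all mice, Clock also missed it with limma on log2(FPKM + 1) and log2(FPKM + 0.1) (adjusted p = 0.0602 and 0.0593), with no filter on FPKM (adjusted p = 0.0507) and with the replicate block (adjusted p = 0.0736), and Per2 with that block (adjusted p = 0.0585).

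Tef read 46.5, 27.6 and 36.4 FPKM with LM8, in each mouse above the highest IL-33 mouse at 26.8 FPKM. Its log2 fold change of 0.51 ± 0.16 did not pass (adjusted p = 0.0555, edgeR). It passed on all mice with DESeq2 (adjusted p = 0.00266) and in the fit of all 9 mice (adjusted p = 0.0344), and without LM8 mouse 2, at 0.68 (adjusted p = 0.00497). For Dbp the LM8 mice read 10.6, 2.33 and 11.1 FPKM, all below the IL-33 mice, but the change of -0.70 ± 0.49 did not pass (adjusted p = 0.341, edgeR). Without LM8 mouse 2 it was -0.27 ± 0.11 (adjusted p = 0.121). Nr1d1 at 43.8, 11.4 and 25.8 FPKM and Nr1d2 at 31.3, 17.3 and 25.7 FPKM lay on both sides of the IL-33 mice, with log2 fold changes of 0.09 ± 0.40 and 0.02 ± 0.18 (adjusted p = 0.906 and 0.947, edgeR) whose sign depended on the setting. Leaving out LM8 mouse 1 gave -0.44 for Nr1d1.

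Per1 with LM8 was at 41.5, 29.4 and 32.3 FPKM, Per3 at 10.5, 5.17 and 7.79 FPKM and Ciart at 9.46, 6.00 and 8.62 FPKM. Each straddled the IL-33 mice, and none passed, with log2 fold changes of 0.13 ± 0.12, 0.05 ± 0.22 and 0.17 ± 0.17 (adjusted p = 0.473, 0.910 and 0.534, edgeR). C920021L13Rik, antisense to Ciart, rose by 0.71 (adjusted p = 0.0170, edgeR). Among the 13 other clock genes tested 3 rose and 1 fell, beside 12.6% and 13.9% of all genes. Cry2 changed by 0.77 ± 0.09, Csnk1e, a kinase that marks PER proteins for breakdown, by 0.28 ± 0.06, and Bhlhe40 by -0.64 ± 0.12 (adjusted p = 0.000982, 0.0148 and 0.00588, edgeR). Arntl at 1.10, 2.67 and 1.97 FPKM and Npas2 at 0.895, 1.21 and 1.31 FPKM did not pass (adjusted p = 0.440 and 0.0638, edgeR), although without LM8 mouse 1 both did, at 0.63 and 0.85 (adjusted p = 0.0401 and 0.0419). Npas2 also passed on all mice with DESeq2 (adjusted p = 0.0168) and with the replicate number as a block (adjusted p = 0.0468). Cry1 and Nfil3 had log2 fold changes of 0.34 and -0.32 (adjusted p = 0.148 and 0.263, edgeR).

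Markers moved here as well. All 6 endothelial and all 3 club cell markers rose with LM8, all 5 tested eosinophil markers fell, and 5 neutrophil markers, all of which rose, summed to 667.0 to 780.0 FPKM against 79.0 to 102.4 FPKM in IL-33 mice. None of the 4 cardiac markers passed. Over all genes tested, 12.6% rose and 13.9% fell here. Of the rhythmic outputs 2 of 8 rose and 0 fell, of the glucocorticoid-induced genes 3 of 8 rose and 0 fell, and of the immediate early genes 3 of 7 rose and 1 fell. Their part in the values of Clock, Per2 and Hlf was not tested.

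Against PBS mice, the IL-33+LM8 mice kept a raised Dbp and Rev-erb pair. Dbp, Nr1d1 and Nr1d2 rose, Clock and Per2 fell, and 5 of the 10 did not pass. The rising 3 compare with 16.3% of 16829 genes that rose, and the falling 2 with 13.4% that fell. All 3 that rose did so at least 2-fold (5.87% of all genes did), and 0 fell that far (1.46% of all genes did). The groups did not overlap in 5 of the 10, against 47.3% of all genes. The median log2 fold change was 0.17.

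For Nr1d1 the log2 fold change was 2.03 ± 0.45 (adjusted p = 0.0150, edgeR), and it missed the threshold without PBS mouse 2 (1.94, adjusted p = 0.0548). Nr1d2 changed by 1.06 ± 0.23 (adjusted p = 0.0134, edgeR) and passed whichever mouse was left out. Dbp changed by 2.11 ± 0.53 (adjusted p = 0.0239, edgeR), with its lowest LM8 mouse, at 2.33 FPKM, only just above the highest control at 2.17 FPKM. This call was lost without LM8 mouse 1 or 3 or any 1 PBS mouse (adjusted p up to 0.0833). With all mice, Dbp also missed the threshold with limma on log2(FPKM + 1) and log2(FPKM + 0.1) (adjusted p = 0.0691 and 0.0665). The call was firmer without LM8 mouse 2, at 2.54 ± 0.20 (adjusted p = 0.000899). Clock was lower by -0.60 ± 0.09 and Per2 by -0.43 ± 0.09 (adjusted p = 0.00260 and 0.0123, edgeR).

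Per1, Per3, Tef and Hlf had log2 fold changes of -0.15 ± 0.13, 0.09 ± 0.23, 0.24 ± 0.18 and 0.31 ± 0.13 that did not pass (adjusted p = 0.434, 0.790, 0.349 and 0.112, edgeR). Ciart, at -0.57 ± 0.22, did not pass either (adjusted p = 0.0937, edgeR). It passed with DESeq2 (adjusted p = 0.0199), and, with the replicate number as a block, at -0.57 ± 0.09 (adjusted p = 0.00554). Of the 13 other clock genes tested 1 rose and 5 fell, beside 16.3% and 13.4% of all genes. Bhlhe40 changed by 1.43 ± 0.13, Arntl by -1.25 ± 0.33 and Npas2 by -1.29 ± 0.23 (adjusted p = 0.000318, 0.0279 and 0.00573, edgeR). Cry1 at -0.31 and Nfil3 at 0.33 did not pass (adjusted p = 0.0853 and 0.218, edgeR). The Arntl call was lost without LM8 mouse 3 or PBS mouse 1 or 3 (adjusted p up to 0.0915). Cry1 passed with the block (adjusted p = 0.0138) and with DESeq2 (adjusted p = 0.0408). Among the outputs 2 of 8 rose and 1 fell, with Tspan4 higher by 1.39 ± 0.15 (adjusted p = 0.000698, edgeR). Neutrophil markers summed to 667.0 to 780.0 FPKM against 21.4 to 26.3 FPKM in PBS mice, and all 5 rose, as did all 4 B cell markers, while 2 of the 3 club cell markers and 3 of the 6 endothelial markers fell. Cardiac markers summed to 62.4 to 89.9 FPKM in the IL-33+LM8 mice, against 163.9 to 188.9 FPKM in PBS mice, and 3 of the 4 fell. The part of these cells in the clock gene values was not tested.

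Dbp and Nr1d1 varied within the IL-33+LM8 group more than nearly all other genes. The highest of the 3 mice exceeded the lowest 4.75 times for Dbp and 3.84 times for Nr1d1, and 98.7% and 98.4% of 14674 genes with a mean of at least 1 FPKM had a smaller ratio in that group, whose median was 1.18. Per3 (2.03 times) and Arntl (2.43 times) were also wide. In the IL-33 group the same ratios were 1.25 for Dbp, 1.07 for Nr1d1 and 1.27 for Arntl, with a median over genes of 1.14. The PBS group lay between, at 1.58 for Dbp, 1.59 for Nr1d1 and 1.68 for Arntl, with a median of 1.17. There 88.1%, 88.4% and 90.3% of genes had a smaller ratio, so these genes were also wider than most in untreated mice.

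**Figure D4:**
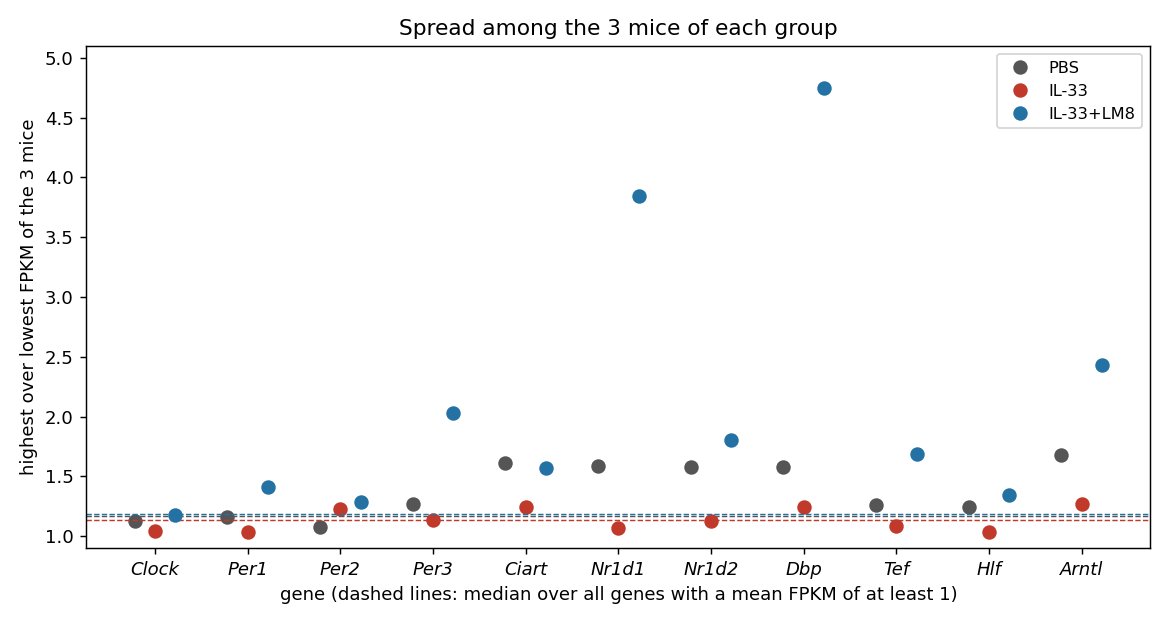
Highest over lowest FPKM among the 3 mice of a group (y axis) for the 10 clock genes and Arntl (x axis), coloured by group; dashed lines give the median over 14674 genes in each group. The IL-33+LM8 group reaches 4.75 for Dbp and 3.84 for Nr1d1, while no gene plotted exceeds 1.27 in the IL-33 group or 1.68 in the PBS group.

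One animal stood at the end of the range for nearly every member. LM8 mouse 2 was the lowest of its group for 9 of the 10 genes and the highest for the remaining one, Clock, while 39.2% of all genes tested were lowest in that mouse. LM8 mouse 1 was the highest for 8 of the 10, while 39.2% of all genes tested were highest in that mouse. The ratio of Dbp to Arntl was 9.62 and 5.61 in LM8 mice 1 and 3, and 0.873 in mouse 2, above the PBS range of 0.246 to 0.614 and below all IL-33 mice. Nr1d1 over Arntl was 39.9, 4.27 and 13.1 in mice 1, 2 and 3. Nfil3 and Arntl ran the other way, both highest in mouse 2 at 14.1 and 2.67 FPKM and lowest in mouse 1 at 8.47 and 1.10 FPKM. LM8 mouse 2 was singled out after its values were seen, and its total count of 62104126 lay within the range of the other mice.

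The genes most like Dbp over the 9 mice, outside the clock and output lists, were ranked by Pearson's r of log2(FPKM + 1) among 14673 genes with a mean of at least 1 FPKM. Of all 14673 genes, the listed ones included, 14 exceeded an r of 0.95. Highest outside the lists were Esrra (r = 0.98), Arl5c (0.97), Cactin (0.97), Zyx (0.96) and Ntng2 (0.96). Their changes were smaller, as Esrra had mean levels of 5.17, 6.64 and 5.98 FPKM in the PBS, IL-33 and IL-33+LM8 groups. These correlations describe 9 mice that fall into 3 groups, so group differences enter every one of them. Ranked by deviations from the group means, the first 5 were Mmgt2, Eif4ebp2, Oga, Trbv1 and Taok1 (r = 0.98 to 0.99). Without LM8 mouse 2 their r was 0.69 to 0.96. Among the other 9 members, r without that mouse went from 0.87 to 0.39 for Per3, from 0.84 to 0.64 for Nr1d2, from 0.84 to 0.42 for Tef, from 0.76 to -0.61 for Nr1d1 and from 0.67 to 0.29 for Hlf. It went from 0.58 to 0.06 for Per2, from 0.52 to -0.53 for Per1, from 0.47 to -0.74 for Ciart and from -0.46 to -0.11 for Clock, so that each r was nearer to 0 or of the other sign without it.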

How the data were processed

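Lung RNA-seq of 9 mice in 3 groups of 3 was used. The authors deposited 1 table of raw read counts and FPKM per gene and mouse. The submitters' processing notes name HISAT2 2.0, StringTie 1.3.0 and Bowtie 0.12.2 and build mm10, without saying which step made which column. The table names no build, its coordinates equal those of GENCODE M21 (GRCm38) for 578 of 32643 shared genes, and they are printed as given. Promoter windows come from RefSeq (GRCm38.p6).

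Counts were tested with edgeR 4.0.16 (R 4.3.3, TMM, quasi-likelihood), one fit per comparison of 6 mice. Genes entered at a 9-mouse mean of 0.5 FPKM or more and a count above 0. The standard error is the log2 fold change over the square root of F. The exact permutation test of 3 mice against 3 cannot go below p = 0.1. Alternatives were other filters and scalings, DESeq2 1.42.0, limma 3.58.1 on log2(FPKM + 1) and log2(FPKM + 0.1), a joint fit of the 9 mice, the replicate number as a block, and leaving out each mouse. Reads carry no molecular identifiers.

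Same-numbered PBS and IL-33+LM8 mice deviated together (r = 0.39, 0.43 and 0.73), and same-numbered pairs with IL-33 mice did not as a set (-0.55 to 0.38). Some mice of different numbers correlated as much, such as PBS 3 with IL-33 1 (0.73) and IL-33 1 with IL-33+LM8 3 (0.76). PBS 1 with IL-33+LM8 2 reached 0.32. The numbers may thus not mark shared animals or days, which the labels do not state. PBS 3, IL-33 1 and IL-33+LM8 3 each had the highest total count of their group, and the part of depth in these r was not tested. Replicates differed by 21.9 to 50.6 times the sampling variance, so none was a duplicate. The clock genes and all lists were chosen with earlier results of these data known. Genes were named by rule: the 10 members, other clock and output genes past adjusted p under 0.05 and 2-fold, Arntl, Npas2, Cry1 and Nfil3, overlapping genes, the 5 most like Dbp on each measure, and at most 2 genes of each other list. One list gene is not reported here. Csnk1e and Arntl2 were named after their values were seen.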

Additional observations from a re-analysis of the deposited data

How the results depend on the processing

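With IL-33 against PBS, the counts of clock genes that passed (9) and that changed at least 2-fold (3) stayed within 1.5 times under all alternatives. For IL-33+LM8 against IL-33, 3 passed, against 1 (Hlf) with a replicate block, and 1 to 3 when each mouse was left out, with 1 without LM8 mouse 3, IL-33 mouse 1 or IL-33 mouse 3. For IL-33+LM8 against PBS, the count at least 2-fold, 3, was 1 with limma on log2(FPKM + 1), and 1 to 3 when each mouse was left out, with 1 without LM8 mouse 1, PBS mouse 1 or PBS mouse 2. The count that passed, 5, was 3 to 5 when each mouse was left out, with 3 without PBS mouse 2. Fits that left out a mouse held fewer mice, and the cause of these differences was not tested.

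Signs turned only in log2 fold changes that had not passed. For IL-33+LM8 against IL-33 they were, with limma on log2(FPKM + 1), limma on log2(FPKM + 0.1) and the replicate block in that order, -0.0024, -0.0088 and -0.0072 for Per3, -0.10, -0.11 and -0.11 for Nr1d1, and -0.014, -0.016 and -0.0149 for Nr1d2. When each mouse was left out, they ranged from -0.22 to 0.27 for Per3, from -0.44 to 0.45 for Nr1d1, from -0.17 to 0.22 for Nr1d2 and from -0.024 to 0.22 for Per1. For Per3 the ranges were -0.040 to 0.12 in IL-33 against PBS and -0.17 to 0.32 in IL-33+LM8 against PBS. Rora ranged from -0.11 to 0.0022 in IL-33 against PBS. In IL-33+LM8 against PBS, Bhlhe41 ranged from -0.19 to 0.42, and Csnk1d was -0.018 under the filter at 5 FPKM, -0.0082 with total counts, -0.022 with upper-quartile factors, -0.0040 and -0.0042 with limma on log2(FPKM + 1) and log2(FPKM + 0.1), and -0.0063 to 0.028 when each mouse was left out. In every comparison, the block joins mice that the labels link by number alone. Over the 10 clock genes, 432 of 480 alternative values kept their sign and call, 27 no longer passed and 5 newly passed. In comparisons with IL-33+LM8 mice the standard errors of Dbp and Nr1d1 were 0.40 to 0.53 on the log2 scale, and a change of -0.70 in Dbp did not pass there.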
